A study of Mus musculus with 20 samples.

Results

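Macrophage marker genes were followed across leg and extraocular muscle of mdx and control mice. The set comprised 10 genes, Lgals3, Cd53, Lyz2, Laptm5, Mpeg1, Cd68, Adgre1, Csf1r, Lcp1 and Cd14. Each was taken wherever the platform annotation gave it as the only gene symbol of a probe set, the group of short oligonucleotides that measures a transcript. This gave 15 probe sets of the 12588 that are not array controls, with at least 1 for all 10 genes, out of 8220 genes that have a probe set of their own. Of these, 12 probe sets reached the level required for testing, a scaled signal of 200 on at least 5 arrays, which 7204 probe sets of the array did.

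Total RNA was the starting material for one-colour Affymetrix arrays, with 5 arrays in each of 4 groups and 20 in all. The groups were leg muscle of mdx mice, leg muscle of control mice, extraocular muscle (EOM, the muscle that moves the eye) of mdx mice and EOM of control mice, all aged 8 weeks. The mdx mouse lacks full-length dystrophin through a premature stop codon in Dmd, and is a model of Duchenne muscular dystrophy; the series title calls the control mice wild type. The labels name gastrocnemius and soleus for the control leg samples and only leg muscle for the mdx leg samples. They also describe the control and mdx arrays in different words, so that any handling that went with genotype cannot be told apart from it. Replicates were not stated to be separate animals, so the p-values cover only the spread among these samples, which may be technical.

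Macrophages are phagocytes that settle in tissues or arise there from blood monocytes, and in dystrophic limb muscle they enter in large numbers around damaged fibres, clear debris and release factors that act on muscle stem cells and fibroblasts. The 10 genes cover several of their functions: surface receptors (Csf1r, Cd14, Adgre1), membrane and lysosomal proteins (Cd53, Laptm5, Cd68), secreted or antibacterial proteins (Lyz2, Mpeg1, Lgals3) and an actin-bundling protein (Lcp1). None is wholly specific, since several are also made by neutrophils, other leukocytes or, for Lgals3, by some cells that are not leukocytes. In bulk muscle RNA, fewer cells of a type and less RNA per cell cannot be told apart.

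Promoter sequence from RefSeq (build GRCm38.p6) was found for 7 of the 10 genes. Windows of 300 bases, from 250 before to 50 after the annotated start, were searched on both strands for GAGGAA, the core motif of PU.1, the myeloid transcription factor encoded by Spi1. The motif was present for 3 of the 7 genes, Cd53, Laptm5 and Cd68, and in 28.3% of all 32851 promoter windows in the table, so its presence is a description of these windows and nothing more. TGANTCA, the AP-1 motif, was present for Cd68 and in 7.81% of all windows. TATAAA was present for Laptm5 and in 13.6%. Cd53 and Laptm5 are shown because they hold a match inside the printed stretch, while the Cd68 matches, at -225 to -220 and 30 to 35 from the start, are not wholly inside it. Each sequence runs from 120 bases before to 30 bases after the start, 5′ to 3′ on the gene's strand, with GAGGAA or its reverse complement TTCCTC in capitals. Cd53 lies on the minus strand at chr3:106790120-106790269, and Laptm5 on the plus strand at chr4:130913196-130913345.
Cd53: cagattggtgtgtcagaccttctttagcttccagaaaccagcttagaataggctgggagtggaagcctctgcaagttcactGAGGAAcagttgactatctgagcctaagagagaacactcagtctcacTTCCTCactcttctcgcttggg
Laptm5: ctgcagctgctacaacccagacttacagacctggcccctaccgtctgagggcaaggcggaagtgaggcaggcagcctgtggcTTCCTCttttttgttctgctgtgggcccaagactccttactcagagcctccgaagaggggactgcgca

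Lyz2 encodes the lysozyme of macrophages and has a close neighbour, Lyz1, known for its expression in Paneth cells of the gut. The annotated starts are 10596 bases apart on the minus strand of chromosome 10, and the printed windows (Lyz2 at chr10:117282243-117282392, Lyz1 at chr10:117292839-117292988) match at 141 of 150 positions, or 94.0%, while the full windows match, position by position, at 201 of 300. They are shown as the starts of neighbouring genes, with the 9 positions that differ in capitals. Most of each printed window lies before the start, outside the transcript. Its likeness therefore does not show whether a probe set reads both genes. One probe set annotated to both was not used, and the Lyz2 values below come from a probe set annotated to Lyz2 alone, whose overlap with Lyz1 transcripts was not tested.
Lyz2: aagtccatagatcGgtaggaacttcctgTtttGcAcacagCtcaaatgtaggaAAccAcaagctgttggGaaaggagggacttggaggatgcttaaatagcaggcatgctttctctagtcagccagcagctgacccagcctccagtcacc
Lyz1: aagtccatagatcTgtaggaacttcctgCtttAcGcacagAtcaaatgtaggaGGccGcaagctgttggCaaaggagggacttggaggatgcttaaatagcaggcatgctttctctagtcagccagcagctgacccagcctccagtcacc

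Values are scaled signals, the authors' intensities brought to a common mean of 500 on every array by a single factor per array. For testing, signals under 50 were raised to that floor and log2 was taken, so a fold is a lower bound, written as at least, when an array of the lower group was under the floor. A fold is a ratio of geometric means and can exceed the ratio of the arithmetic means. All 20 arrays entered a single limma fit, and a probe set passed where its Benjamini-Hochberg adjusted p over all 7204 was under 0.05.

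The share of probe sets above 200 was 48.9% to 51.7% on the leg mdx arrays, 47.2% to 50.1% on the leg control arrays, 49.6% to 52% on the EOM mdx arrays and 49.7% to 51.9% on the EOM control arrays. Dmd, the mutated gene, averaged 77.5 ± 32.3 in leg mdx and 149 ± 40.2 in leg control muscle (SD, n = 5 each; limma adjusted p = 0.0323), and 119 ± 31.7 in EOM mdx against 268 ± 47.4 in EOM control muscle (adjusted p = 0.233). The array labelled leg control 4 stood apart, with Myl2 at 45.2 against 8608 to 20215 on the other leg control arrays and Hoxd8 at 94.9 against 737 to 1416. On average, leg control 1 correlated at 0.892 with the rest of its group, the lowest value of the 20 arrays. With both arrays left out, all 10 marker genes still passed in leg muscle. A control of RNA quality also differed: the log2 ratio of the 3′ to the 5′ beta-actin probe set averaged -1.86 ± 1.25 in leg mdx and 0.504 ± 0.365 in leg control muscle (SD, n = 5 each), while for Gapdh it averaged -2.5 ± 0.137 in leg mdx and -2.48 ± 0.844 in leg control muscle. Its part in the marker values was not tested.

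In leg muscle, every one of the 10 genes was higher in mdx than in control mice, by 2.3-fold for Cd14 up to at least 45.8-fold for Lgals3. Of the 12 tested probe sets, 10 passed higher and 0 lower, 1 for each gene, against 10.7% of all 7204 probe sets that passed higher and 7.15% that passed lower. The mdx and control arrays did not overlap for any of these 10 probe sets, against 8.38% of all probe sets with every mdx array above every control array. The median log2 difference over the 10 genes, each by its brighter probe set, was 3.38, against -0.06 over all probe sets. The genes were chosen with earlier results of these data known. Lgals3, Cd53 and Adgre1 reached the level for testing only with the leg mdx arrays, where all 5 arrays read 200 or more. The shares of all probe sets, here and below, are therefore a description and not a test.

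Among the receptors, Csf1r encodes the receptor for the growth factor that macrophages need to survive and multiply. Its signals were 1903, 2013, 1910.3, 1763 and 2999 on the leg mdx arrays and 227, 514, 533, 409 and 487 on the leg control arrays. All mdx arrays lay above all control arrays, with the fifth mdx array apart at the top and the first control array at the bottom, and the log2 difference was 2.32 ± 0.27 (SE), or 5-fold (limma adjusted p = 1.53e-06). Cd14, the co-receptor that hands bacterial lipopolysaccharide to Toll-like receptor 4, read 1340.4, 1917, 1962, 1260.3 and 1709 in leg mdx against 522, 846, 914, 676 and 616 in leg control muscle. The groups did not overlap, but this was the smallest difference of the 10, 1.2 ± 0.17 or 2.3-fold (adjusted p = 2.46e-05). Adgre1 encodes F4/80, the adhesion receptor on which antibody staining of mouse macrophages rests. It was at 328, 415, 599, 517 and 876 in leg mdx and 111, 119.7, 119, 38.6 and 180.3 in leg control muscle. The spread was wide in both groups without overlap, and the log2 difference of 2.27 ± 0.52, at least 4.82-fold, had the highest adjusted p of the 10 genes (0.00318).

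Of the membrane and lysosomal proteins, Cd53 is a tetraspanin of leukocytes. It had signals of 789.6, 1269, 1926, 1458 and 1513 on the leg mdx arrays and 26.4, 78.4, 66.2, 20.7 and 12.6 on the leg control arrays. Of the control arrays 3 lay under the floor, and the difference was 4.53 ± 0.4, at least 23.1-fold (adjusted p = 3.6e-08). Laptm5, a lysosomal membrane protein of blood cells, read 2226, 2498, 2410.4, 2446 and 2303 in leg mdx against 324, 172, 162, 134 and 174 in leg control muscle. The mdx arrays were close together (2377 ± 111, SD, n = 5), and the difference was 3.69 ± 0.24, or 12.9-fold (adjusted p = 4.71e-10). Cd68, a lysosomal glycoprotein related to the LAMP family and a common histological macrophage marker, stood at 1573, 1926, 2709, 2470.4 and 1770.1 in leg mdx and 574, 421, 528, 509 and 410.1 in leg control muscle. Its groups were also apart, by 2.08 ± 0.14 or 4.22-fold (adjusted p = 9.9e-10).

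The secreted and antibacterial proteins gave some of the largest differences. Lyz2 read 7941, 8960.1, 9762, 9275 and 9557 in leg mdx and 242, 803, 835, 685 and 432 in leg control muscle. The lowest mdx array lay far above the highest control array, with a difference of 4.06 ± 0.28, or 16.7-fold (adjusted p = 9.9e-10). Mpeg1, a pore-forming protein of phagosomes, was at 2853, 2738, 3143, 3401 and 3510 in leg mdx against 469.8, 323, 504, 323 and 285 in leg control muscle. It had the smallest adjusted p of the 10 genes, 2.01e-10, for a difference of 3.07 ± 0.19 or 8.4-fold. Lgals3 encodes galectin-3, a lectin that activated macrophages release and that is also found in other cells. It was at 2755, 2943, 3166, 2669 and 4211 in leg mdx and 90.4, 44.2, 28.4, 127 and 14.5 in leg control muscle. Of the control arrays 3 lay under the floor, and the difference of 5.52 ± 0.41, at least 45.8-fold, was the second largest in size of all 7204 probe sets (adjusted p = 3.14e-09).

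Lcp1 encodes L-plastin, which bundles actin filaments in leukocytes. Its signals were 1686, 1636, 1134, 1750.3 and 1745 on the leg mdx arrays and 76.5, 106, 91.6, 92.7 and 109 on the leg control arrays. Control arrays were tightly grouped (95.2 ± 13, SD, n = 5) and the third mdx array was the lowest of its group, with a difference of 4.06 ± 0.38 or 16.6-fold (adjusted p = 6.87e-08).

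**Figure D1:**
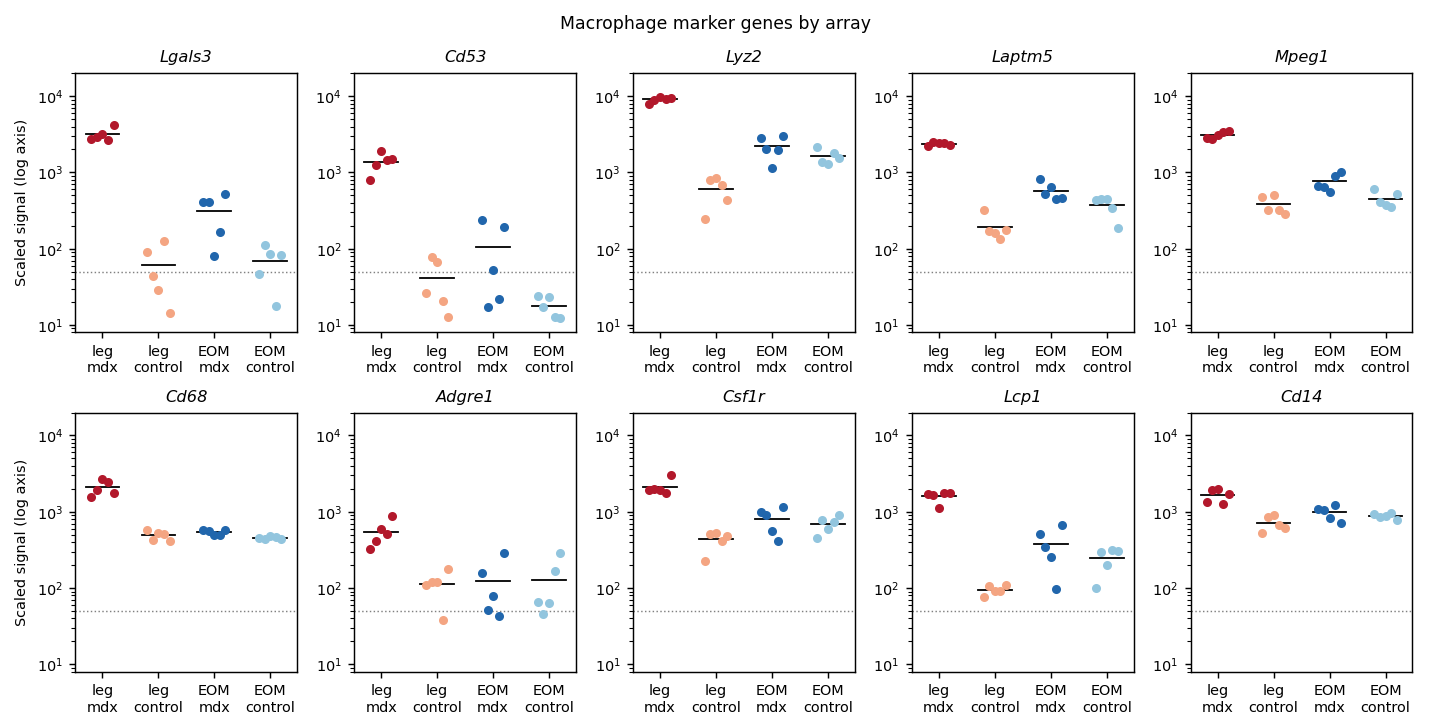
Scaled signal (log axis) of the brighter probe set of each of the 10 genes, 1 point per array and a line at the group mean; the dotted line is the floor of 50. In every panel the 5 leg mdx points lie above the 5 leg control points, while EOM mdx and EOM control points overlap in all panels but Cd68.

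In EOM, 0 of the 12 tested probe sets passed between mdx and control mice in the limma fit, where 0.0833% of all probe sets passed. Without adjustment, 4 had p under 0.05 (Lgals3, Mpeg1, Laptm5 and Cd53), all higher in mdx, where 2.55% of all probe sets were higher and 5.12% differed in either direction at that p. The median log2 difference over the 10 genes was 0.42, within a range of -0.02 to 1.83, against a median of -0.02 over all probe sets. One gene, Cd68, had every mdx array above every control array, as did 0.5% of all probe sets.

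Lgals3 showed the largest EOM difference of the set. Its signals were 409.6, 412, 79.7, 165 and 518 on the EOM mdx arrays and 46.1, 113, 86, 17.5 and 82.5 on the EOM control arrays. On 4 mdx arrays it lay above all controls and on the third it lay among them, and the difference was 1.83 (95% interval 0.98 to 2.69), at least 3.56-fold (limma adjusted p = 0.104). Leaving out 1 array at a time gave differences of 1.58 to 2.26 and adjusted p of 0.00444 to 0.426. Only the fit without EOM mdx array 3 passed, with a difference of 2.26 and an adjusted p of 0.00444. Mpeg1 read 674, 654, 561, 897 and 1022 in EOM mdx against 599.6, 412, 369, 354 and 526 in EOM control muscle. Of the mdx arrays 4 were above all controls, for a difference of 0.75 (0.35 to 1.14; adjusted p = 0.27).

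Laptm5 had EOM mdx signals of 825, 523, 647, 446 and 458 and EOM control signals of 431, 449.6, 443, 341 and 187. The groups overlapped by the fourth mdx array alone, and the difference was 0.67 (0.17 to 1.18; adjusted p = 0.955). Cd53 was uneven in EOM mdx muscle, at 238, 17.2, 52.5, 21.9 and 193, against 23.9, 17.1, 23.6, 12.7 and 12.2 in EOM control muscle. All control arrays and 2 mdx arrays lay under the floor, so the difference of 0.85 (0.01 to 1.69; adjusted p = 0.958) rests on 3 mdx arrays. Cd68 read 585, 559, 492, 500.4 and 575 in EOM mdx and 451, 438, 479, 469 and 439 in EOM control muscle. The groups lay apart by a narrow gap, and the difference of 0.25 (-0.05 to 0.55) had an adjusted p of 0.999.

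For the other 5 genes the interval of the EOM difference included 0. Lcp1 was at 513, 345, 256, 96.9 and 668 in EOM mdx and 101, 296, 198, 319 and 308 in EOM control muscle, a difference of 0.47 (-0.33 to 1.26). Lyz2 was at 2788, 2039, 1141, 1959 and 3034 in EOM mdx and 2179, 1377, 1301, 1791 and 1531 in EOM control muscle, a difference of 0.37 (-0.21 to 0.95). For both, mdx arrays lay above and below the controls. Csf1r was at 981, 903, 554, 409 and 1145 in EOM mdx and 447, 779, 597, 744 and 894 in EOM control muscle, a difference of 0.15 (-0.41 to 0.71). Cd14 was at 1071, 1068, 838, 1233 and 713 in EOM mdx and 948, 849.6, 885, 963 and 782 in EOM control muscle, a difference of 0.13 (-0.23 to 0.49). The control range was spanned on both sides by mdx arrays in these genes too. Adgre1 was at 159.6, 51.7, 77.8, 43.3 and 285 in EOM mdx and 65.5, 45, 62.9, 167 and 288 in EOM control muscle, a difference of -0.02 (-1.1 to 1.05). These 5 genes had adjusted p of 0.999 or more.

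The 5 EOM mdx arrays were not alike. Array 5 held the highest value of its group for 6 of the 10 genes and array 1 for 3, while arrays 3 and 4 each held the lowest for 4. The summed signal of the 10 genes was 8244, 6571, 4699, 5771 and 8610 on EOM mdx arrays 1 to 5, against 4446 to 5293 on the EOM control arrays. The sum of 33 other macrophage and myeloid genes, from a separate list, was 19932, 15506, 14343, 15390.5 and 20715 on the same mdx arrays and 13124 to 17028 on the control arrays. Both sums were highest on arrays 5 and 1 and lowest on array 3. Another pair of measures was also highest on arrays 1 and 5. The sum of 3 red blood cell genes was 16503, 10793, 9696, 9429 and 17234, and the log2 3′ to 5′ ratio of Gapdh was -0.54, -1.54, -2.1, -1.36 and -0.8. On the EOM control arrays the red blood cell sum was 11221 to 17741 and the Gapdh ratio -3.35 to -1.49. The part of either in the marker values was not tested.

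**Figure D2:**
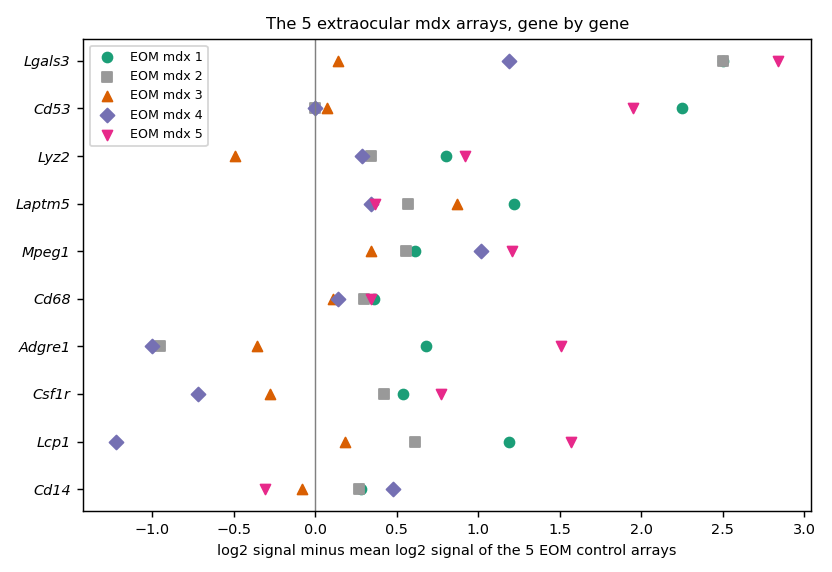
Log2 signal of each gene on the 5 EOM mdx arrays minus the mean log2 signal of the 5 EOM control arrays (vertical line at 0), after the floor. Arrays 1 and 5 lie furthest right for most genes, and array 3 or 4 furthest left for 8 of 10.

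The mdx effect in leg muscle was compared with that in EOM by the difference of the 2 effects. It passed for 9 of the 12 probe sets, all larger in leg, against 4.93% of all probe sets. The excess of the leg effect was 3.69 ± 0.39 (SE) on the log2 scale for Lyz2 (limma adjusted p = 6.31e-06), 3.68 ± 0.58 for Lgals3 (0.000327), 3.68 ± 0.57 for Cd53 (0.000278), 3.59 ± 0.54 for Lcp1 (0.000192) and 3.02 ± 0.34 for Laptm5 (9.49e-06). It was smaller for Mpeg1, at 2.32 ± 0.27 (1.1e-05), for Csf1r, at 2.18 ± 0.38 (0.000962), for Cd68, at 1.83 ± 0.2 (7.38e-06), and for Cd14, at 1.07 ± 0.24 (0.00862). Adgre1 had a difference of 2.29 ± 0.73 that did not pass (adjusted p = 0.0674). Its adjusted p ranged from 0.00916, with a floor of 100, to 0.183 over the alternative settings. For Lgals3 and Cd53 the floor cut both effects. For Adgre1, 1 array lay under the floor in each of leg control, EOM mdx and EOM control muscle. For these genes the excess is therefore not a lower bound. Over the alternative settings it was 3.26 to 4.12 for Lgals3, 3.07 to 4.03 for Cd53 and 1.88 to 2.68 for Adgre1.

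**Figure D3:**
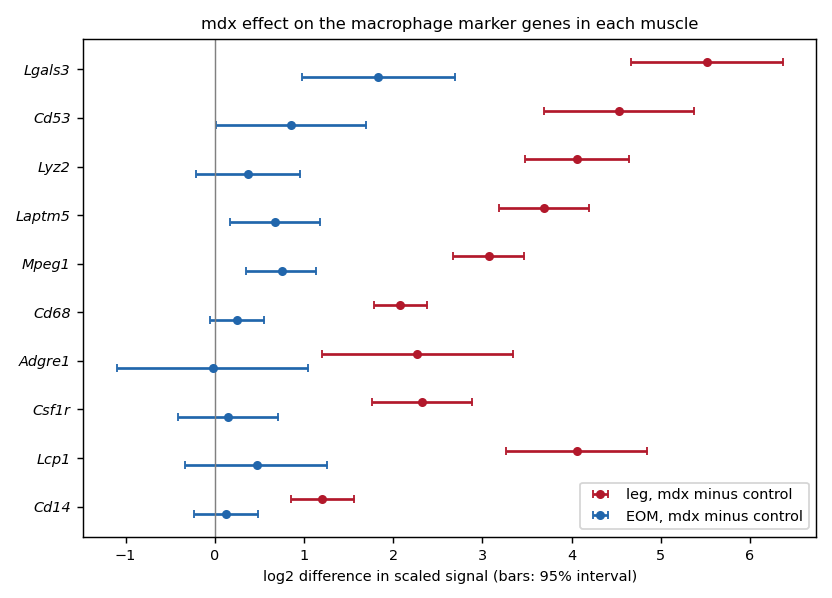
Log2 difference in scaled signal, mdx minus control, for each gene in leg muscle (red) and EOM (blue), with 95% intervals from the limma fit. The leg intervals lie wholly above 0 for all 10 genes and do not meet the EOM interval of the same gene.

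Between muscles of control mice, 3 of the 12 probe sets passed, all higher in EOM, against 10.3% of all probe sets. Lyz2 averaged 1636 ± 357 in EOM control and 599 ± 255 in leg control muscle (SD, n = 5 each), a log2 difference of 1.56 ± 0.28 (SE) or 2.95-fold (limma adjusted p = 0.000357). It was the only one of the 10 genes whose groups did not overlap here, with 7.69% of all probe sets apart in that direction. Laptm5 averaged 370.5 ± 111 in EOM control and 193 ± 74.9 in leg control muscle, 1.92-fold higher (adjusted p = 0.00871, or 0.0541 where only these groups were fitted). Lcp1 averaged 244 ± 93.4 in EOM control and 95.2 ± 13 in leg control muscle, 2.39-fold higher (adjusted p = 0.025), and did not pass without leg control arrays 1 and 4 (adjusted p = 0.0983). The other 7 genes had differences of -0.21 to 0.7, the last for Csf1r (692 ± 173 in EOM control and 434 ± 125 in leg control muscle, adjusted p = 0.0814).

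Between muscles of mdx mice, all 10 genes were lower in EOM, and the groups did not overlap. The 10 brighter probe sets passed lower, against 8.83% of all probe sets, and 7.02% of all probe sets lay apart in that direction. Cd53 averaged 104 ± 103 in EOM mdx and 1391 ± 413 in leg mdx muscle, at least 14.8-fold lower as a ratio of geometric means (limma adjusted p = 4.32e-07). Lgals3 averaged 317 ± 185 in EOM mdx and 3149 ± 624 in leg mdx muscle, 12-fold lower (adjusted p = 1.5e-06). Cd14 showed the smallest difference, with 985 ± 207 in EOM mdx and 1638 ± 324 in leg mdx muscle, 1.67-fold lower (adjusted p = 0.0038).

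Ordered by mean log2 signal, leg mdx muscle was highest for all 10 genes and passed against the next group each time. For 7 genes the order ran on through EOM mdx, EOM control and leg control muscle. In those 7 genes EOM mdx did not pass against EOM control, and EOM control passed against leg control for Lyz2, Laptm5 and Lcp1. Cd53 and Cd68 had leg control above EOM control muscle, and Adgre1 had EOM mdx lowest, but none of these neighbours passed.

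Of the 10 genes, 5 had a second, dimmer probe set, and in each of these the leg mdx and leg control arrays overlapped. The second probe sets of Laptm5 and Csf1r were bright enough to be tested. For Laptm5 it averaged 191 ± 77 in leg mdx and 209 ± 107 in leg control muscle (SD, n = 5 each), a log2 difference of -0.06 (95% interval -0.75 to 0.64; limma adjusted p = 0.932). For Csf1r it averaged 114 ± 61.8 in leg mdx and 121 ± 34.3 in leg control muscle, a difference of -0.18 (-1.3 to 0.93; adjusted p = 0.859). Those of Mpeg1, Cd68 and Lcp1 never came near the level for testing, with ranges over the 20 arrays of 7.85 to 47.9, 15.7 to 84.3 and 23.3 to 65.3. Probe sets of this early array design were in some cases withdrawn by its maker, and whether these 5 read their genes was not tested.

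**Figure D4:**
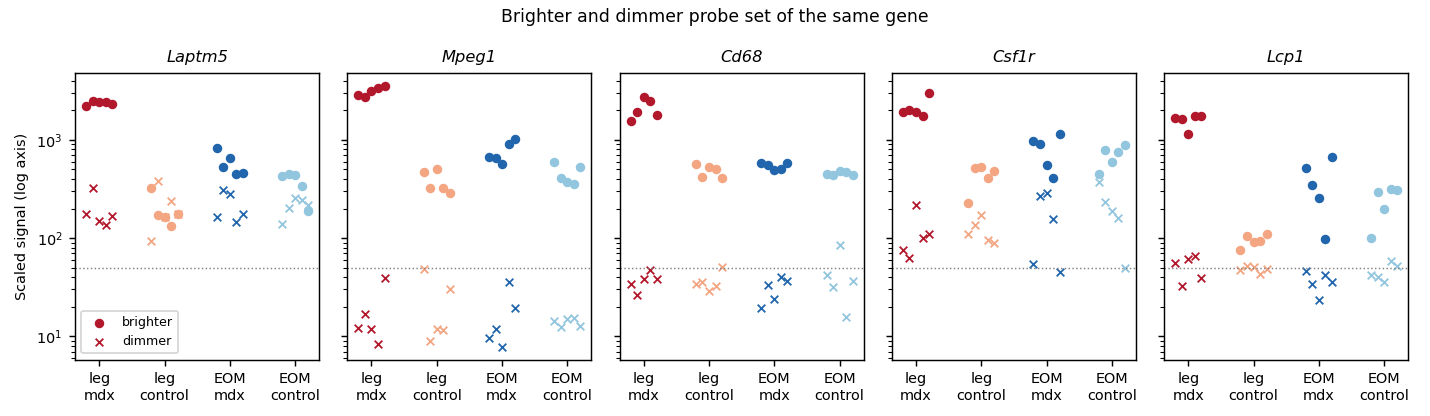
Scaled signal (log axis) of the brighter (circles) and dimmer (crosses) probe set of the 5 genes with a pair, by group, 1 mark per array; the dotted line is the floor of 50. The circles are high in leg mdx muscle, while the crosses lie at like levels in all 4 groups.

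Genes that act with the members were read from gene lists. To set beside the counts of these and the later lists, 10.7% of all 7204 probe sets passed higher in leg mdx muscle and 7.15% lower. In EOM, 0.0833% passed in either direction. In every list, genes bright mainly in leg mdx muscle could reach the level for testing, which favours them in the leg counts. The CSF1 receptor axis had 6 tested genes, of which 2 were higher in leg mdx muscle and 0 lower. Tyrobp, a signalling adaptor of myeloid receptors, averaged 2353 ± 426 in leg mdx and 176 ± 53.9 in leg control muscle (SD, n = 5 each), 13.8-fold higher (limma adjusted p = 5e-08). Csf2ra, the alpha chain of the GM-CSF receptor, was 2.89-fold higher (245 ± 72.2 in leg mdx, 85 ± 25.6 in leg control muscle, adjusted p = 0.0131). Csf1, a ligand of the receptor that Csf1r encodes, averaged 717 ± 116 in leg mdx and 607 ± 241 in leg control muscle and did not pass (log2 difference 0.32 ± 0.29, SE; adjusted p = 0.514). In EOM, 0 of the 6 passed.

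Of 6 tested genes of the CD14 and Toll-like receptor pathway, 1 was higher in leg mdx muscle, against 10.7% of all probe sets. That count is not read as a result about the pathway. This was Lbp, the serum protein that brings lipopolysaccharide to CD14, at 1122 ± 67.7 in leg mdx and 673 ± 126 in leg control muscle, 1.69-fold higher (adjusted p = 0.00183). Myd88, the main adaptor of Toll-like receptors, averaged 289 ± 88.9 in leg mdx and 178 ± 78.3 in leg control muscle (adjusted p = 0.208). The remaining 4, Tirap, Irak1, Traf6 and Nfkbia, had log2 differences of -0.48 to 0.25.

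Among 9 tested myeloid transcription factors, 4 were higher in leg mdx muscle and 0 lower. Spi1, which encodes PU.1, averaged 723 ± 109.7 in leg mdx and 307 ± 52 in leg control muscle, 2.36-fold higher (adjusted p = 0.00101). Irf8, needed for monocyte development, averaged 642 ± 229 in leg mdx and 200 ± 39.1 in leg control muscle, 3.12-fold higher (adjusted p = 0.000772). Cebpa was 2.43-fold higher (2912 ± 562 in leg mdx, 1192 ± 212 in leg control muscle, adjusted p = 4.98e-06) and Stat6, the factor of interleukin-4 signalling, 1.78-fold higher (adjusted p = 0.0014). In EOM mdx muscle 0 of the 9 passed, and Spi1 averaged 355 ± 168 there against 361 ± 29.8 in EOM control muscle.

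Of the other macrophage and myeloid list, which shares Csf2ra and Tyrobp with the receptor axis, 33 genes are on the array and 22 were tested. Genes bright in leg mdx muscle alone could reach the level for testing, which favours them among the tested genes. Of the 22, 18 were higher in leg mdx muscle and 0 lower, against 10.7% and 7.15% of all probe sets. The median log2 difference over the 22 was 1.97. The one with the smallest adjusted p, Ctss, a lysosomal protease of antigen-presenting cells, averaged 8856 ± 756 in leg mdx and 423 ± 88 in leg control muscle, 21.2-fold higher. Cx3cr1, Lyve1, Mertk and Fgr did not pass. Cx3cr1, a chemokine receptor of monocytes and resident macrophages, averaged 640.3 ± 97.5 in leg mdx and 745 ± 240.1 in leg control muscle. In EOM, 1 of the 22 passed, again Ctss, at 1414 ± 363 in EOM mdx against 686 ± 183 in EOM control muscle (2.06-fold higher, adjusted p = 0.0259).

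Lists for other cells were read beside the markers. Of 8 tested pan-leukocyte genes, 6 were higher in leg mdx muscle, a count that the level for testing favours. Its list sums were 6212 to 9809 in leg mdx and 2861 to 4251 in leg control muscle. Of the fibroblast genes 7 of 8 were higher, with sums of 40224 to 46794 in leg mdx and 24209 to 28985 in leg control muscle. Neither list overlapped between these groups, and the part of other cells in the marker values was not tested.

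The sums of the lymphocyte and neutrophil lists overlapped between the leg groups. The neutrophil sum was 2134 to 2784 in leg mdx and 1732 to 2258 in leg control muscle, with 1 of 5 tested genes (S100a8) higher. The T cell sum was 1734 to 2585 in leg mdx and 1044 to 2248 in leg control muscle. Leg control array 4 alone gave that overlap, at 2248, while the other leg control arrays lay at 1044 to 1626. Of 3 tested T cell genes 1 was higher (Thy1), and the defining genes Cd3d, Cd3e and Cd3g stayed under 200 on all arrays of both groups. The B cell sum was 2868 to 3740.4 in leg mdx and 2998 to 4326 in leg control muscle, with 0 of 6 higher. Of the remaining lists, NK cell (1 tested gene), eosinophil (1), muscle fibre (8) and red blood cell (2) genes had none that passed, mast cell genes had 1 of 2 higher (Cma1), dendritic cell genes 1 of 4 higher (Itgax) and endothelial genes 1 of 8 lower (Flt1).

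**Figure D5:**
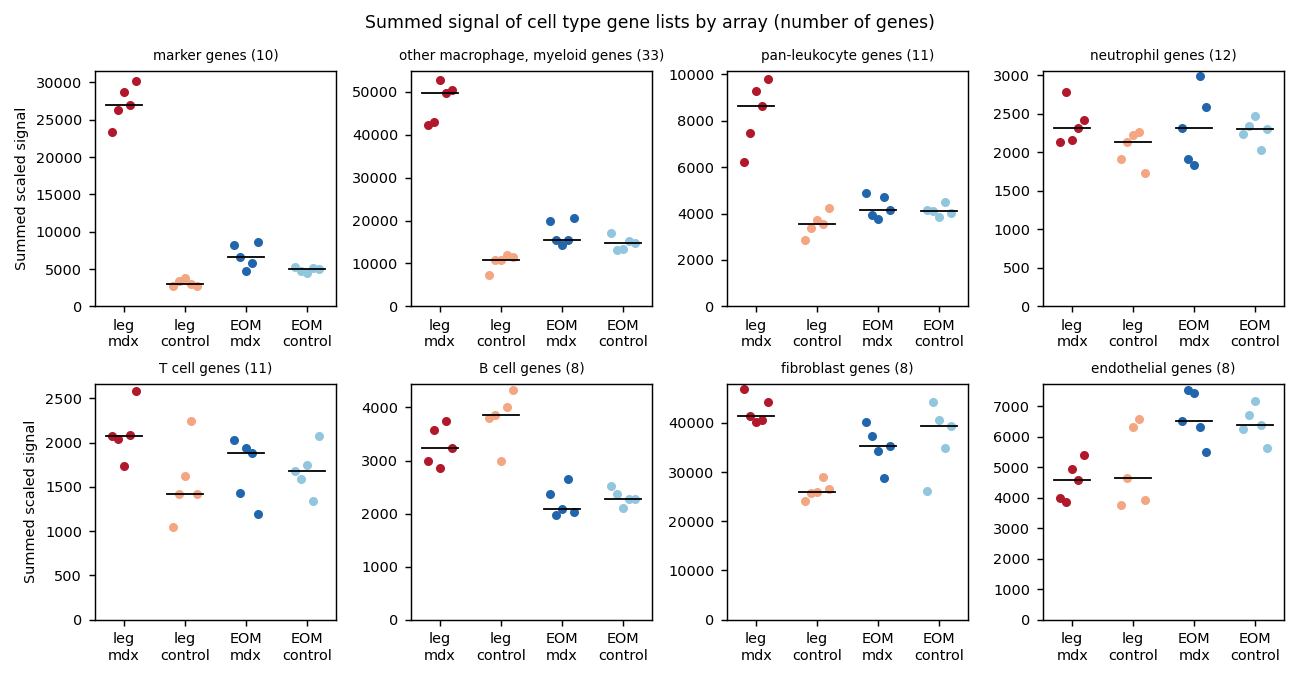
Summed scaled signal of the genes of each list on the array (number in brackets), 1 point per array with a line at the group median. The marker genes and the other macrophage, pan-leukocyte and fibroblast lists lie higher in leg mdx than in leg control muscle without overlap. The neutrophil, T cell, B cell and endothelial lists overlap between those groups, the T cell list by leg control array 4 alone.

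The genes whose pattern was most like the mean pattern of the 10 markers were found by the root mean square distance between centred log2 values over the 20 arrays. The 8 closest were C1qb (0.36), C3ar1 (0.38), H2-Aa (0.39), Sirpa (0.4), C1qa (0.42), Anxa1 (0.43), Tmsb10 (0.47) and Ccl7 (0.47), against a median distance of 1.36 over 6250 probe sets. The markers themselves, which make up the mean, ranged from 0.34 for Mpeg1 to 1.13 for Lgals3. C1qb and C1qa encode chains of complement C1q. C1qb averaged 3749 ± 935 in leg mdx, 391 ± 101 in leg control, 962 ± 541 in EOM mdx and 624 ± 199.7 in EOM control muscle (SD, n = 5 each). H2-Aa, a chain of MHC class II, averaged 4804 ± 398 in leg mdx, 744 ± 76.9 in leg control, 1139 ± 435 in EOM mdx and 885 ± 214 in EOM control muscle.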

How the data were processed

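The authors deposited a linear intensity for 12654 probe sets on each of 20 arrays. The summarising software was not given in the sources used here; each deposited array has a 2% trimmed mean of 1500.1, so the intensities had already been scaled. Each array was rescaled to a trimmed mean of 500 over non-control probe sets, floored at 50 and log2 transformed. Of the probe sets, 10298 have 1 annotated symbol, 363 have several and 1993 are not listed. Some probe sets of this early design were later withdrawn, and none was removed.

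limma 3.58.1 (lmFit, eBayes with trend) in R 4.3.3 was fitted to 4 groups with 16 residual degrees of freedom, with Benjamini-Hochberg adjustment within each of 5 contrasts. For the order of the groups, leg mdx against EOM control and EOM mdx against leg control were fitted too, adjusted in the same way. Adjusted p-values come from this fit. The script was tested on simulated data. The number of arrays limits the precision.

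The 18 gene lists, of which the members are 1, were chosen with earlier results of these data known. All member probe sets are given on every array; per other list, up to 4 passing genes with the smallest adjusted p may be named, and any gene of the receptor, Toll-like and relatives lists; S100a8, Thy1, Cma1, Itgax and Flt1 fall under the first part. The 4 genes of the other macrophage list that did not pass, the Cd3 genes, the beta-actin and Gapdh ratios and Myl2 and Hoxd8 were named after their values were seen. A gene is represented by its brightest tested probe set. Likeness used the 8 closest one-symbol probe sets. Alternatives were a replicate block, array weights, no trend, fitting just the groups compared, leaving out each array or leg control 1 and 4, a floor of 20 or of 100, a pseudocount of 50, a filter at 500 or none, quantile normalization and no rescaling.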

Additional observations from a re-analysis of the deposited data

Results flagged for a closer look

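The mdx effect differed between leg muscle and EOM for 9 genes by limma's test of the difference. The log2 excess of the leg effect was 3.68 for Lgals3, 3.68 for Cd53, 3.69 for Lyz2, 3.02 for Laptm5, 2.32 for Mpeg1, 1.83 for Cd68, 2.18 for Csf1r, 3.59 for Lcp1 and 1.07 for Cd14.

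Of 60 sets of 5 arrays (15 probe sets in 4 groups), 5 held an array far from the other 4 of its group by Dixon's test, which chance alone gives for about 1 in 20. Csf1r read 2999 on leg mdx array 5 against 1763 to 2013 on the others. Lcp1 read 1134 on leg mdx array 3 against 1636 to 1750.3, and the brighter Laptm5 probe set read 324 on leg control array 1 against 134 to 174. The dimmer Laptm5 probe set read 326 on leg mdx array 2 against 136 to 176. The dimmer Mpeg1 probe set read 39.6 on leg mdx array 5 against 8.41 to 16.7, all under the floor of 50.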

How the results depend on the processing

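Over the alternative settings, 1389 values for single probe sets were computed: 1373 kept their side of the threshold, 9 gained a call and 7 lost one. The sign changed in 44 values of 10 results, none of them called, all with log2 differences of 0.21 or less in size. All 10 genes passed in leg muscle in every fit that left out an array (10 to 10), and likewise between muscles of mdx mice (10 to 10). In EOM the count was 0 to 1, the 1 being Lgals3 without EOM mdx array 3. The difference of effects passed for 9 to 10 probe sets, with Adgre1 the one gained. Between muscles of control mice it was 2 to 4: Lcp1 lost its call without any 1 of EOM control arrays 2, 4 and 5 or leg control array 1 (adjusted p 0.0532 to 0.0673) and with no filter (0.0673), and Csf1r gained one without EOM control array 1 (0.0412). The cause was not tested. A filter at 500 left fewer probe sets tested.

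The deviations of same-numbered arrays correlated at -0.08 to 0.23 over 20 pairs, 4 of them over 0.1. The 10 mdx and control pairs, which cannot share a mouse, lay at 0.01 to 0.23. The leg and EOM pairs of a genotype, which could, lay at -0.08 to 0.08. Of 10 mdx arrays, 5 correlated best with the control array of their own number. That is at most a hint of pairing from the data and not from the labels, and the count expected without pairing was not computed. Since not every pair was over 0.1, the numbers were not taken as pairs. With a replicate block the counts were 10 in leg, 0 in EOM, 10 for the difference, 4 between control muscles and 10 between mdx muscles, with Adgre1 gained in the difference (adjusted p = 0.0224) and Csf1r between control muscles (0.0417). Probe sets near or under the floor, as in the control groups of Lgals3 and Cd53, give only lower bounds of the leg mdx effect. The difference of effects is not such a bound for these genes, since the floor cut the EOM effect as well. Nor is it for Adgre1, with 1 array under the floor in each EOM group.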

Other observations

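Relatives of the marker genes gave mixed results in leg muscle, where 6 of 16 tested were higher in mdx mice and 1 lower by limma's adjusted p. Of all probe sets, 10.7% passed higher and 7.15% lower. Lgals3bp, which encodes a protein that binds galectin-3, averaged 1082 ± 143 in leg mdx and 439 ± 101 in leg control muscle (SD, n = 5 each), 2.5-fold higher. The tetraspanins Cd37 and Cd9 were 2.61-fold and 1.72-fold higher, while Cd81, Cd82 and Cd151 had log2 differences of 0.27, 0.18 and -0.19 that did not pass. Laptm4b, a relative of Laptm5, was 1.68-fold lower (776 ± 53.1 in leg mdx, 1311 ± 141 in leg control muscle). Lamp2, a lysosomal relative of Cd68, was 1.84-fold higher, and Pls3, the plastin of cells other than leukocytes, was 1.66-fold higher. Pdgfra, a receptor tyrosine kinase related to Csf1r and found on fibroblasts, was 2.51-fold higher. In EOM 0 of the 16 passed in either direction.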
